A study of Rattus norvegicus with 6 samples.

Results

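The genes described here encode the enzymes that turn pyruvate and acetate into acetyl-CoA, the enzymes of the citrate cycle with their cytosolic counterparts, and the mitochondrial enzymes that oxidise fatty acids. The 42 members are a list of named pathway genes, drawn up with earlier results of these data known, 25 as pyruvate and citrate cycle enzymes and 17 as beta-oxidation enzymes, and 41 of them were among the 18166 genes measured here. Fumarase (Fh) had no probe set of its own in the annotation. The probe set of a gene was chosen by the highest mean log2 value over all 6 arrays, a measured value that does not use the groups, and each of the 41 members had only 1 to choose from. The data are log2 expression values from 6 Affymetrix rat arrays, each hybridised with RNA of cerebral arteries from male rats. The SAH group comprised arrays 1, 4 and 5, from rats with 6 hours of subarachnoid haemorrhage, in which blood enters the space that surrounds the brain and its arteries. The sham group comprised arrays 6, 7 and 8, from sham-operated rats with no time stated, so that array number and group cannot be told apart. The labels give neither strain nor age, and do not say that each array came from another animal, and the p-values then cover only the spread among the arrays, which may be technical.

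The citrate cycle takes the acetyl group of acetyl-CoA, made from pyruvate by the pyruvate dehydrogenase complex or from fatty acids by beta-oxidation, and passes its electrons to the respiratory chain as NADH and as reduced flavin. Some members stand beside the cycle: the NADP-dependent isocitrate dehydrogenases and malic enzyme supply NADPH, which is used for reductive synthesis and for keeping glutathione reduced. Arterial smooth muscle, the main cell type of the vessel wall, is known to meet its energy needs by both respiration and aerobic glycolysis. In a whole artery, fewer cells of a type and less RNA per cell cannot be told apart.

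After SAH most of these enzymes had lower values than in sham arteries, and 4 of the 41 fell past the threshold used here, a Benjamini-Hochberg adjusted p under 0.05 by limma over all probe sets. These were Idh2, Me1 and Acss1 among 24 measured pyruvate and citrate cycle enzymes and Ech1 among 17 beta-oxidation enzymes, and none rose. Over all 18166 genes, 0.33% were called lower by the same rule. The 4 falls were 1.51-fold to 1.98-fold in size. The SAH values of 23 members lay wholly below their sham values, 16 of them pyruvate and citrate cycle enzymes and 7 beta-oxidation enzymes, and those of 1 member lay wholly above. Over all genes 15.4% lay wholly below and 11.4% wholly above. Among the 11323 genes brighter than their array's median on at least 3 arrays, as 40 of the 41 members were, 22.1% lay wholly below. When dim probe sets were left out of the fit, 8 members were called lower (Idh1, Aco1, Idh3a and Hadh besides the 4), beside 2.76% of the genes tested, and at an adjusted p under 0.10 in the full fit 7 were, beside 1.15%.

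**Figure D1:**
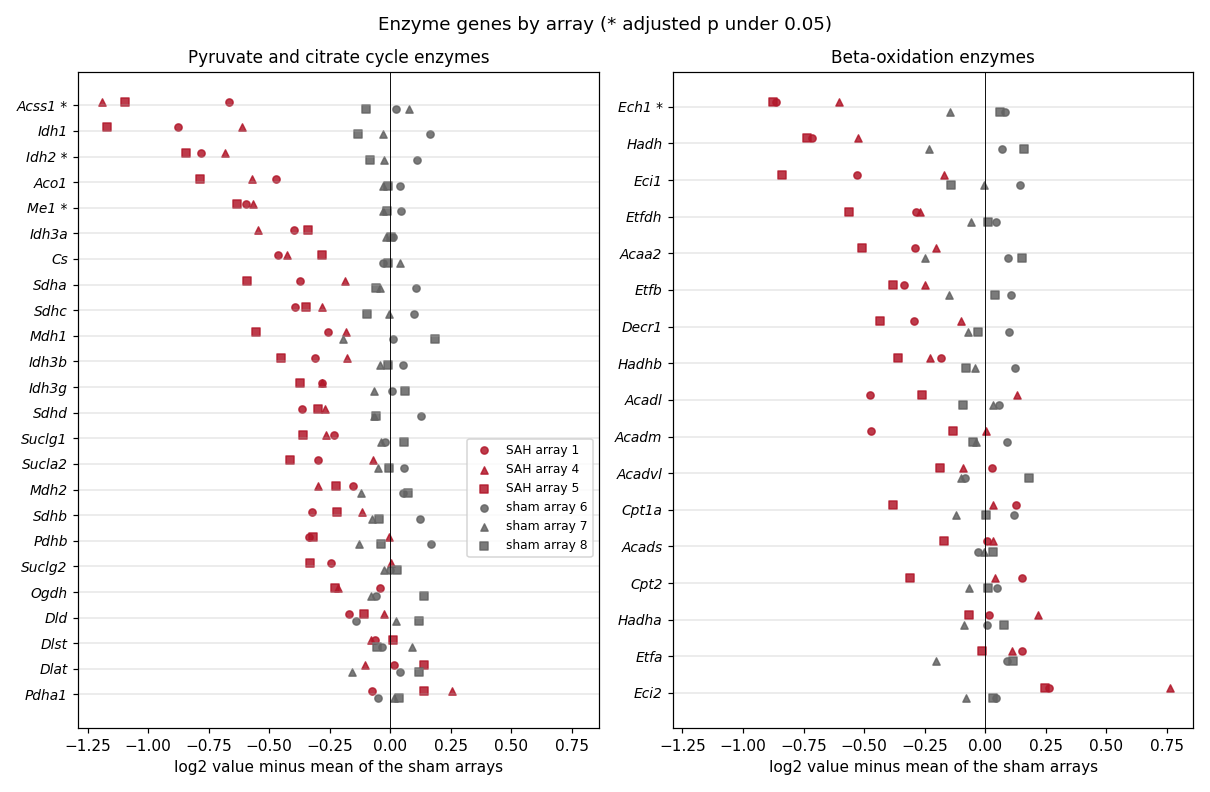
Each row is a member and each point an array, plotted as the log2 value minus the mean of the 3 sham arrays, with SAH arrays in red and sham arrays in grey. Asterisks mark the 4 members with an adjusted p under 0.05, and the red points of 23 members lie wholly to the left of the grey ones.

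Idh2, the mitochondrial NADP-dependent isocitrate dehydrogenase (probe set 17634240), had log2 values of 10.64, 10.74 and 10.58 in SAH arrays 1, 4 and 5, against 11.53, 11.39 and 11.34 in sham arrays 6, 7 and 8. The groups were separated by more than the range within either. Idh2 fell 1.71-fold, at 10.65 ± 0.08 in SAH and 11.42 ± 0.10 in sham arteries (mean ± SD, n = 3 each; limma adjusted p = 0.0314). Its cytosolic counterpart Idh1 read 8.90, 9.16 and 8.61 in SAH arteries and 9.94, 9.74 and 9.64 in sham arteries, again with no overlap. The difference for Idh1 was larger than for Idh2 but came with a wider spread, at -0.89 ± 0.16 (SE), and did not pass (limma adjusted p = 0.0771).

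Me1, cytosolic malic enzyme, which makes NADPH while turning malate into pyruvate (probe set 17854433), varied least within the groups among the called members. It read 9.69, 9.72 and 9.65 in SAH arteries and 10.33, 10.26 and 10.27 in sham arteries. Me1 fell 1.51-fold (9.69 ± 0.03 against 10.29 ± 0.04, SD, n = 3 each; limma adjusted p = 0.0416). Idh1, Idh2 and Me1 are the members that supply NADPH, and in each of them the groups did not overlap.

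Acss1, the mitochondrial acetyl-CoA synthetase that activates acetate (probe set 17778148), had the largest difference of all members. Its values were 8.64, 8.11 and 8.20 in SAH arteries, against 9.33, 9.38 and 9.20 in sham arteries, so that SAH array 1 stood nearer to sham than the other 2 SAH arrays did. Acss1 fell 1.98-fold (8.32 ± 0.28 in SAH and 9.30 ± 0.09 in sham arteries, SD, n = 3 each; limma adjusted p = 0.0496). Acss2, the cytosolic enzyme for the same reaction, is no member and was chosen for mention after its values were seen. It read 10.76, 10.95 and 11.13 in SAH arteries and 10.41, 10.35 and 10.43 in sham arteries, a difference of 0.55 ± 0.12 (SE) that did not pass (limma adjusted p = 0.111). Whether Acss1 and Acss2 differ from each other in their response was not tested.

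**Figure D2:**
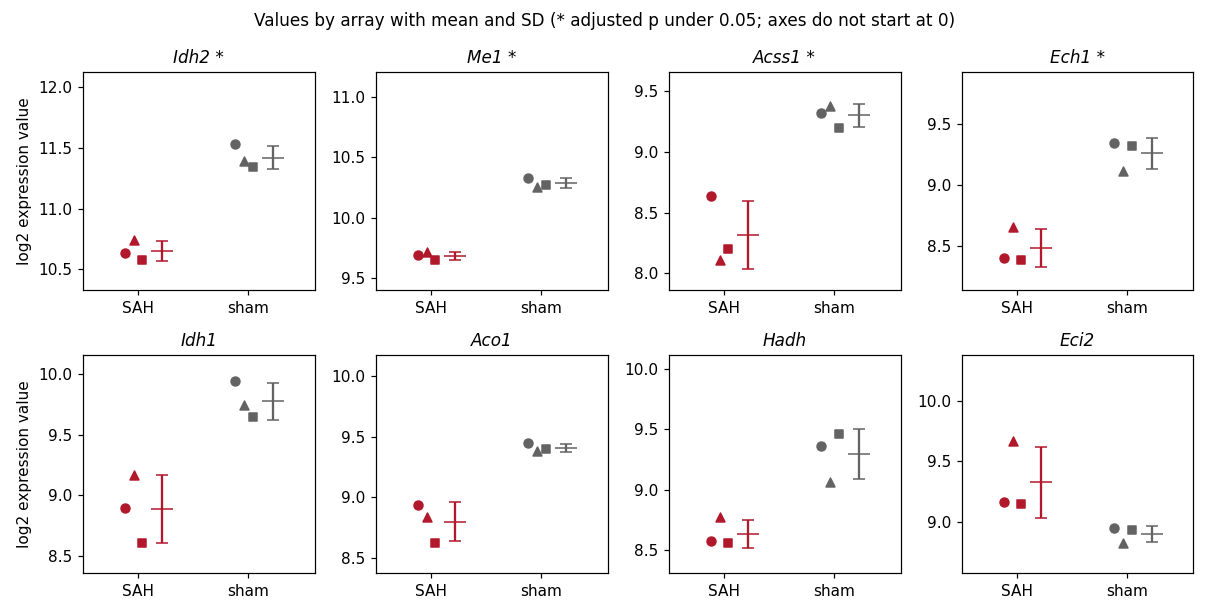
The log2 values of 8 members are plotted by array, SAH in red on the left and sham in grey on the right of each panel, beside the mean with SD. The groups do not overlap in any of the 8, and Eci2 is the one in which SAH arteries are higher.

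The enzymes that open the cycle had SAH values wholly below sham. Cs, citrate synthase, which joins acetyl-CoA to oxaloacetate, differed by -0.39 ± 0.10 (SE), with a limma adjusted p of 0.142. Aco1, the cytosolic aconitase that also acts as an iron-regulatory RNA-binding protein, read 8.94, 8.84 and 8.62 in SAH arteries and 9.45, 9.38 and 9.40 in sham arteries. Its difference of -0.61 ± 0.11 had a limma adjusted p of 0.0767.

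The 3 subunit genes of the NAD-dependent isocitrate dehydrogenase, a regulated enzyme of the cycle, all had SAH values wholly below sham. So did 15.4% of all genes and 22.1% of the brighter genes. Idh3a, the catalytic subunit, read 9.44, 9.29 and 9.49 in SAH arteries and 9.85, 9.82 and 9.84 in sham arteries. The difference was -0.43 ± 0.10 (SE) for Idh3a, -0.31 ± 0.11 for Idh3b and -0.31 ± 0.09 for Idh3g, with limma adjusted p from 0.122 to 0.249. None of the 3 passed.

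The pyruvate and oxoglutarate dehydrogenase complexes share the subunit Dld, and none of their measured genes had SAH values wholly below sham. Pdha1 and Pdhb, which form the decarboxylating component of pyruvate dehydrogenase, differed by 0.11 ± 0.11 and -0.22 ± 0.14 (SE). Dlat, the acetyl-carrying core, differed by 0.02, with a 95% interval of -0.26 to 0.30, and Dld by -0.10 (-0.36 to 0.15). The differences of Ogdh and Dlst, the oxoglutarate dehydrogenase and its core, were -0.16 (-0.42 to 0.10) and -0.04 (-0.27 to 0.18). The limma adjusted p of these 6 genes ran from 0.531 to 0.971. The intervals of Pdhb, Dld and Ogdh still reach below -0.31, the median over the pyruvate and citrate cycle enzymes, and those of the other 3 do not.

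All 4 subunit genes of succinate dehydrogenase, which is also complex II of the respiratory chain, had SAH values wholly below sham, with differences of -0.38 ± 0.13 (SE) for Sdha, -0.22 ± 0.11 for Sdhb, -0.34 ± 0.10 for Sdhc and -0.31 ± 0.10 for Sdhd. For succinyl-CoA ligase, whose beta subunits set the nucleotide it uses, the shared subunit Suclg1 differed by -0.29 ± 0.09, Sucla2 by -0.26 ± 0.12 and Suclg2 by -0.19 ± 0.11. The malate dehydrogenase genes Mdh1 (cytosolic) and Mdh2 (mitochondrial) differed by -0.33 ± 0.15 and -0.23 ± 0.10. None of these 9 genes passed, with limma adjusted p from 0.190 to 0.511. SAH values wholly below sham were found in 15.4% of all genes and 22.1% of the brighter genes.

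By place in the cell, the 4 cytosolic members of this group, Aco1, Idh1, Mdh1 and Me1, had differences of -0.89 to -0.33 with a median of -0.60. The 20 mitochondrial members ran from -0.98 to 0.11 with a median of -0.28. Of these, 3 of the 4 cytosolic and 13 of the 20 mitochondrial members had SAH values wholly below sham. The same held for 15.4% of all genes and 22.1% of the brighter genes. Whether the 2 places differ was not tested.

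Among the beta-oxidation enzymes, those that remodel unsaturated fatty acids held both the largest fall and the only member whose SAH values lay wholly above sham. Ech1, a dienoyl-CoA isomerase that shifts double bonds (probe set 17614994), read 8.40, 8.66 and 8.38 in SAH arteries and 9.34, 9.12 and 9.32 in sham arteries. Ech1 fell 1.72-fold (8.48 ± 0.15 against 9.26 ± 0.13, SD, n = 3 each; limma adjusted p = 0.0496). Eci1, an enoyl-CoA isomerase, read 8.76, 9.12 and 8.45 in SAH arteries and 9.43, 9.28 and 9.15 in sham arteries, a difference of -0.51 ± 0.18 (SE). Decr1, the dienoyl-CoA reductase, differed by -0.28 ± 0.12 and was the 1 member dimmer than the array's median on all 6 arrays. Eci2, an enoyl-CoA isomerase found in mitochondria and peroxisomes, read 9.17, 9.67 and 9.15 in SAH arteries against 8.95, 8.83 and 8.94 in sham arteries. SAH array 4 set most of the spread of Eci2, whose difference was 0.43 ± 0.16, and 0.26 without that array. The limma adjusted p was 0.264 for Eci1, 0.358 for Decr1 and 0.283 for Eci2.

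The members for the entry and first steps of the oxidation spiral had differences of -0.20 to -0.04. Cpt1a and Cpt2, the carnitine palmitoyltransferases that bring long-chain acyl groups into the mitochondrion, differed by -0.07 (95% interval -0.44 to 0.30) and -0.04 (-0.37 to 0.29). Slc25a20, the acylcarnitine carrier, is no member and was chosen for mention after its values were seen. It differed by -0.40 ± 0.12 (SE), with SAH values wholly below sham. The acyl-CoA dehydrogenase genes Acadvl, Acadl, Acadm and Acads, which act on chains from very long to short, differed by -0.08 ± 0.12 (SE), -0.20 ± 0.16, -0.20 ± 0.14 and -0.04 ± 0.10. SAH and sham values overlapped in all 6 of these members, with limma adjusted p from 0.588 to 0.935. The 95% intervals of Acadl and Acadm still reached down to -0.59 and -0.53. The trifunctional protein, which carries long chains through the next 3 steps, had differences of 0.06 ± 0.11 for its alpha subunit Hadha and -0.26 ± 0.11 for its beta subunit Hadhb.

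Hadh, the hydroxyacyl-CoA dehydrogenase for shorter chains, read 8.58, 8.77 and 8.56 in SAH arteries and 9.36, 9.07 and 9.46 in sham arteries. Its difference of -0.66 ± 0.13 (SE) did not pass (limma adjusted p = 0.0950), and the groups did not overlap. Acaa2, a mitochondrial thiolase, differed by -0.33 ± 0.14, with overlap. The electron transfer flavoprotein takes electrons from the acyl-CoA dehydrogenases to its own dehydrogenase in the inner membrane. Its beta subunit gene Etfb read 8.82, 8.91 and 8.78 in SAH arteries and 9.26, 9.01 and 9.20 in sham arteries, and the dehydrogenase gene Etfdh read 8.91, 8.93 and 8.64 against 9.24, 9.14 and 9.21. These are differences of -0.32 ± 0.11 and -0.37 ± 0.11 with limma adjusted p of 0.245 and 0.211, whereas the alpha subunit gene Etfa differed by 0.08 ± 0.12 with overlapping values.

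The median difference was -0.31 over the 24 pyruvate and citrate cycle enzymes and -0.20 over the 17 beta-oxidation enzymes, beside -0.01 over all genes and -0.05 over the brighter genes. Of the differences, 22 of 24 and 14 of 17 were below 0, beside 52.7% of all genes and 58.3% of the brighter genes. For a list chosen in that way these counts are a description. A typical member varied by 0.11 within a group in the citrate cycle set and by 0.14 in the beta-oxidation set (medians of the pooled SD), beside 0.14 over all genes.

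**Figure D3:**
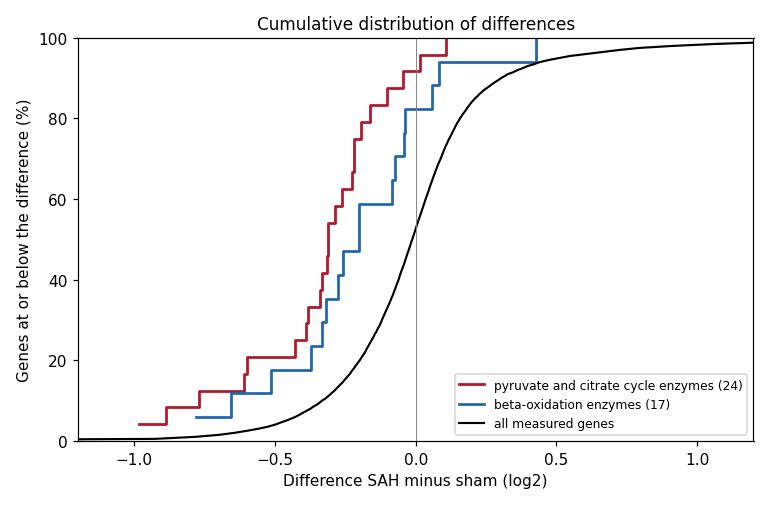
Cumulative share of genes, in percent, at or below a given log2 difference (SAH minus sham) for both enzyme groups and for all 18166 measured genes. The citrate cycle curve lies farthest to the left at its middle, with a median of -0.31, then the beta-oxidation curve at -0.20 and the curve of all genes at -0.01.

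The SAH arrays did not differ equally from sham. Relative to the sham mean, the median of the citrate cycle set was -0.32 for SAH array 1, -0.24 for array 4 and -0.34 for array 5, whereas the sham arrays 6, 7 and 8 gave 0.04, -0.03 and -0.01. The beta-oxidation set stood at -0.29, -0.09 and -0.36 in the SAH arrays and at 0.08, -0.08 and 0.03 in the sham arrays, so that SAH array 4 lay close to sham array 7. SAH array 5 was the lowest of the SAH arrays for 15 of 17 beta-oxidation enzymes and 12 of 24 citrate cycle enzymes, and SAH array 4 was the highest for 12 and 14. Over all 18166 genes SAH array 5 was the lowest SAH array for 5707 and SAH array 4 the highest for 5286.

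Markers of several cell types were read beside the enzymes. All 9 measured smooth muscle markers had differences below 0, and their summed level after undoing the log ran from 36326 to 37132 in SAH arteries and from 41971 to 46121 in sham arteries. Smtn, which encodes smoothelin, fell. All 12 measured neutrophil markers had differences above 0, none passed, and their summed level ran from 12282 to 20824 in SAH and from 4414 to 14506 in sham arteries, with the highest value in SAH array 5. All 9 fibroblast and leptomeningeal markers had differences below 0, with sums of 32308 to 38236 in SAH and 39224 to 41568 in sham arteries. Of 8 endothelial markers 5 had differences below 0 and 3 above, from -0.76 for Cldn5 to 0.61 for Cdh5. The endothelial sums, in which the brightest markers weigh most, overlapped (11727 to 13070 in SAH and 11623 to 13187 in sham arteries). None of 6 adipocyte markers stood above the array median on all 6 arrays, and 1 of 6 neuronal markers did. Of 12 macrophage markers 7 had differences below 0, 5 of them (41.7% of the list) with an unadjusted limma p under 0.05. Above 0, 1 macrophage marker (8.33%) had such a p, as did 3 of the 12 neutrophil markers (25%). Over all genes 10.5% had such a p and a lower value and 8.16% a higher one. The macrophage sums were 15819 to 16227 in SAH and 13980 to 18699 in sham arteries. All 5 measured oligodendrocyte markers had differences above 0, with sums of 2243 to 3291 in SAH and 1551 to 1897 in sham arteries, while astrocyte, striated muscle and red cell sums overlapped. Apart from Smtn none of the markers passed. The part of these cell types in the enzyme differences was not tested.

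The calls depended on single arrays. Without SAH array 1, Idh2, Me1 and Acss1 were called along with Aco1 in a fit that called 183 of 18166 genes lower (1.01%), and Ech1 had an adjusted p of 0.0608. Without any other single array no member passed, in fits that called 0 to 5 genes lower of 18166.

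Other genes of the same pathways, set beside the members, held 1 call. Pdk3, a kinase that phosphorylates and inactivates pyruvate dehydrogenase (probe set 17877767), read 10.07, 10.21 and 10.08 in SAH arteries and 9.23, 8.88 and 9.15 in sham arteries. Pdk3 rose 2.05-fold (10.12 ± 0.08 against 9.09 ± 0.18, SD, n = 3 each; limma adjusted p = 0.0214). No other gene passed among the 28 other pyruvate and citrate cycle genes, the background being 0.963% of all genes called higher, and the median of this list was -0.09. The call ended without any 1 array other than SAH array 1, with adjusted p from 0.0703 to 0.110. Of the other kinases, Pdk4 differed by 0.24 ± 0.16 (SE), with 0.10 when SAH array 4 was left out and 0.39 when SAH array 5 was. Pdk1 and Pdk2, chosen after their values were seen, differed by -0.34 ± 0.09 and -0.66 ± 0.21, and none of the 3 passed.

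**Figure D4:**
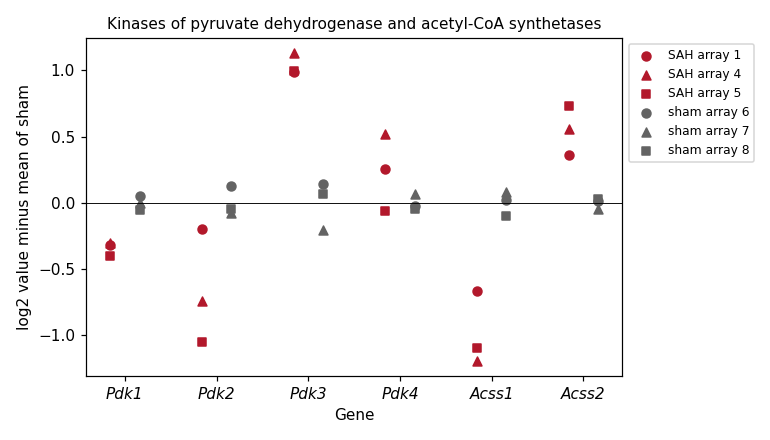
Each point is an array, plotted as its log2 value minus the mean of the sham arrays, with SAH (red) left of sham (grey) for each gene. Pdk3 and Acss2 lie above sham and Pdk1, Pdk2 and Acss1 below in all 3 SAH arrays, and Pdk4 overlaps.

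Slc25a11, the carrier that exchanges oxoglutarate for malate across the inner membrane, differed by -0.67 ± 0.12 (SE), and Dhtkd1, a relative of Ogdh that acts in lysine breakdown, by -0.64 ± 0.13, with limma adjusted p of 0.0739 and 0.0995. Acod1, which turns cis-aconitate of the cycle into itaconate in activated myeloid cells, read 9.28, 9.79 and 11.73 in SAH arteries and 7.48, 7.40 and 8.96 in sham arteries. Its groups did not overlap, but the difference of 2.32 ± 0.69 did not pass (limma adjusted p = 0.200). Within each group Acod1 was highest in the array with the largest neutrophil sum, SAH array 5 and sham array 8. The other arrays did not keep that order. SAH array 1 had a larger neutrophil sum than SAH array 4 (13348 against 12282) but the lower Acod1 value. Sham array 7 likewise had a larger sum than sham array 6 (6693 against 4414) but the lower Acod1 value. Whether Acod1 follows the neutrophil markers was not tested.

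None of 36 other fatty acid oxidation genes passed the limma threshold, where 12 had an unadjusted p under 0.05 and a lower value and 3 a higher one. Over all genes 10.5% had such a p and a lower value and 8.16% a higher one. The list's median was -0.15. Slc27a1, a fatty acid transport protein, read 8.48, 8.48 and 8.53 in SAH arteries and 9.07, 8.91 and 8.95 in sham arteries, a difference of -0.48 ± 0.09 (SE). Acsl5, a long-chain acyl-CoA synthetase, differed by 0.46 ± 0.10, and Acadsb, the dehydrogenase for short branched chains, by -0.65 ± 0.15. Their limma adjusted p were 0.0870, 0.109 and 0.121.

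Regulators of these genes had a median difference of 0.00 over 28 measured, and none passed, with 6 lower (21.4%) and 2 higher (7.14%) at an unadjusted limma p under 0.05, beside 10.5% and 8.16% of all genes. Rxra, the partner receptor of the PPARs, read 9.30, 9.02 and 8.77 in SAH arteries and 9.88, 9.92 and 9.79 in sham arteries. Its difference of -0.83 ± 0.15 (SE) had a limma adjusted p of 0.0701. The forkhead factor gene Foxo1 differed by -0.42 ± 0.10 and Sirt5, a mitochondrial deacylase gene, by -0.62 ± 0.15. Foxo1 has 2 probe sets, of which the brighter was used, and its difference ran from -0.45 to -0.28 over the alternative settings. Ppara, the receptor that drives fatty acid oxidation genes in liver and heart, differed by -0.42 ± 0.19. The coactivator gene Ppargc1a differed by -0.13 ± 0.27 and the estrogen-related receptor gene Esrra by 0.00 ± 0.11, with overlap in Ppargc1a and Esrra. Ppargc1a was dimmer than the array's median on all 6 arrays, so little can be read from its difference. Without SAH array 5 the difference of Ppara was -0.23, and that of Ppargc1a was above 0, at 0.02 without SAH array 5 and 0.14 without sham array 8.

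Genes for mitochondrial import, carriers and protein quality control were set beside the enzymes as a measure of the organelle at large. None of 25 passed the limma threshold, 2 were lower (8%) and 1 higher (4%) at an unadjusted p under 0.05, beside 10.5% and 8.16% of all genes, and the median difference was -0.14. Of the 25, 10 had SAH values wholly below sham and 1 wholly above, beside 22.1% of the brighter genes and 15.4% of all genes wholly below. The chaperonin gene Hspe1 differed by -0.46 ± 0.12 (SE), the outer membrane channel gene Vdac1 by -0.43 ± 0.12, and Cycs, cytochrome c, by 0.33 ± 0.14.

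**Figure D5:**
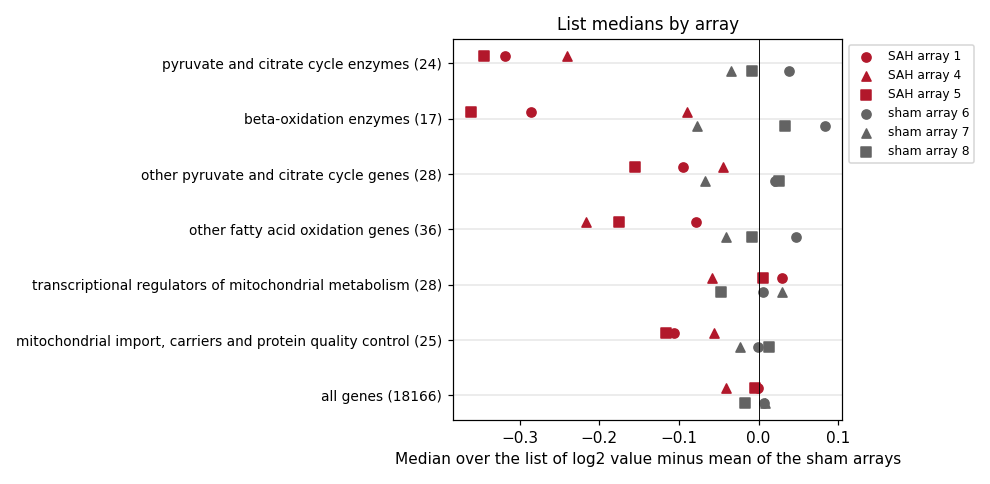
For each list the median over its genes of the log2 value minus the sham mean is plotted by array, SAH in red above sham in grey, with the number of measured genes in brackets. The citrate cycle set lies lowest in SAH array 5, at -0.34, and the beta-oxidation set at -0.36 in the same array, while the medians of all genes lie between -0.04 and 0.01.

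RefSeq promoter windows of the GRCr8 assembly, 250 bases before to 50 after the start of a gene, were found for 36 of the 42 members. They were searched on both strands for TNAAGGTCA, bound by estrogen-related receptors, for CGCNTGCG, the core of the site of nuclear respiratory factor NRF1, and for AGGTCAAAG, the start of the direct repeat bound by PPAR with RXR, where N is any base. The first and the last of these share the letters AGGTCA. The NRF1 core was in 8 of 36 member windows (22.2%), in 7.6% of all 33469 windows and in 11.5% of the 15971 windows of measured genes. Base composition differed too, with a median GC content of 61.8% in member windows and 57% in those of measured genes. The estrogen-related receptor motif was in 1 member window (2.78%), that of Sdhd, in 1.2% of all windows and in 0.795% of those of measured genes. The PPAR motif was in no member window, in 0.475% of all windows and in 0.457% of those of measured genes. Of the called members, Idh2 and Me1 were in the table and held none of the 3 motifs.

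The 4 windows shown are those with a motif whose genes had the smallest p, each 5′ to 3′ in the direction of the gene, with motifs in capitals. They lie at chrX:156675433-156675732 for Idh3g, chr2:167060709-167061008 for Etfdh and chr8:59850592-59850891 for Sdhd, all on the minus strand, and at chr1:102988249-102988548 on the plus strand for Etfb. A match is a match of letters, and binding was not measured.
Idh3g: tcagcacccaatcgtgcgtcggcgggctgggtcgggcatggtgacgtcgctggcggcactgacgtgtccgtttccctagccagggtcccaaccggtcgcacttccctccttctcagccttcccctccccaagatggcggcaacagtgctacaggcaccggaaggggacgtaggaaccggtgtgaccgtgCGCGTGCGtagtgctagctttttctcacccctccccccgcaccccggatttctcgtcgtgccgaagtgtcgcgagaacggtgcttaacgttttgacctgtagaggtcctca
Etfdh: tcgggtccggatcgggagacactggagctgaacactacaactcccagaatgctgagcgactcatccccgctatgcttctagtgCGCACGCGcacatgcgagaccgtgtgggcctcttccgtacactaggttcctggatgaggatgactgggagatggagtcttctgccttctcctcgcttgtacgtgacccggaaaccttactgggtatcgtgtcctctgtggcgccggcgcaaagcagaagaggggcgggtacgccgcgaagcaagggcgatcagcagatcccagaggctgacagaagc
Sdhd: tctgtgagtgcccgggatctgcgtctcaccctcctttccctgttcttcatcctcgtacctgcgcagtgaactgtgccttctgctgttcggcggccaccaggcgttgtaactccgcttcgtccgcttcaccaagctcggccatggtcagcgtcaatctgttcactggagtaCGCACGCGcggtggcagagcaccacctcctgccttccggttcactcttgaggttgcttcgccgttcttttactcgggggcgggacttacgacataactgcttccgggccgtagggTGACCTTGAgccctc
Etfb: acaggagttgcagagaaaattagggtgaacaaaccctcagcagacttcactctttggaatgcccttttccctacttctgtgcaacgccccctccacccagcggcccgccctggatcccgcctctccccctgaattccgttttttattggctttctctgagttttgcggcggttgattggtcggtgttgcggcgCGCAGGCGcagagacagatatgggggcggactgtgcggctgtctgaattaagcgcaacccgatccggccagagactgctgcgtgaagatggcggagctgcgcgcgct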

How the data were processed

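RNA of rat cerebral arteries was measured on 6 Affymetrix arrays, 3 SAH and 3 sham. The values deposited by the authors are log2 expression values, made with Affymetrix Expression Console 1.1.2 and RMA per the submitters' processing notes. Their settings, and the genome build, were not given in the sources used here. RMA quantile-normalizes, so a general change in RNA amount cannot be seen, and it understates differences of very dim and very bright genes. Precision is limited by there being 6 arrays. Array medians lay between 7.31 and 7.37, and arrays correlated at 0.970 to 0.991 over probe sets, which are not independent. SAH array 1 correlated more with sham arrays 6 and 7 (0.9865 and 0.9856) than with SAH arrays 4 and 5 (0.9838 and 0.9802). Its correlation with sham array 8 was 0.9832. No batch is given.

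Of 36685 probe sets, 190 controls were set aside. GEO's platform annotation, updated by gene ID through RefSeq (GRCr8), gave 1 gene for 18511 of the other 36495, several for 575 and none for 17409, or 18166 genes. SAH minus sham was fitted by lmFit and eBayes of limma 3.58.1 (R 4.3.3), without covariates. P-values are two-sided and were adjusted by Benjamini-Hochberg over the 36495. The 95% intervals use eBayes degrees of freedom. The test was also run on simulated data. Their probe sets were independent and the added differences larger than any member's, so smaller differences and dependent probe sets were not checked.

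Members and lists were chosen with earlier results of these data known. Values per array are given for called members and, in each enzyme group, for the 6 with the smallest p, and beside them members of the same complex or step. Of each other list the 3 smallest p, any called gene and Ppara, Ppargc1a, Esrra, Pdk4 and Acod1 were named. Marker lists for macrophages, astrocytes, oligodendrocytes, striated muscle and red cells were also read.

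Alternatives were leaving out probe sets not above their array's median on at least 3 arrays, repeated quantile normalization, subtracted array medians, trended and robust eBayes, a threshold of 0.10, array weights, the mean over a gene's probe sets, and each array left out in turn.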

Additional observations from a re-analysis of the deposited data

How the results depend on the processing

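The count of 4 members called lower became 8 with dim probe sets left out, where 313 of 11323 genes (2.76%) were called lower, 7 at an adjusted p under 0.10 (1.15% of genes) and 2 with the mean over a gene's probe sets, a setting that leaves each member's own values as they are and changes the number of features tested. It ran from 0 to 4 with an array left out. Each of these fits rests on 5 arrays. With quantile normalization repeated Acss1 had an adjusted p of 0.0504, and with array medians subtracted Ech1 had 0.0587, and the cause was not tested. None of the members was called higher in any of these settings. The other lists held 28, 36, 28 and 25 measured genes. Together they had 0 genes called lower at first, beside 0.33% of all genes. That count became 5 with the dim filter (2.76% of genes tested), 2 with trend and robust options (0.666%) and 1 with array weights (0.589%). It was 4 at an adjusted p under 0.10 (1.15%) and 0 to 2 with an array left out (0 to 1.01%). The count called higher was 1 at first, beside 0.963% of all genes. It became 3 with the dim filter, where 672 of 11323 genes were called in either direction. With an array left out it ran from 0 to 4, in fits that called 29 to 670 genes in either direction. The median of the citrate cycle enzymes ran from -0.34 to -0.25 with an array left out, the smallest without SAH array 5, and that of the beta-oxidation enzymes from -0.30 to -0.17. Both stayed below 0 in all settings. Scaling moved the median of all genes from -0.01 to -0.02 at most. No paired analysis was possible because the groups share no array number. Dim signal limits Decr1 most among the members.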

Other observations

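The long-chain acyl-CoA synthetases, which activate fatty acids before oxidation or lipid synthesis, had differences in both directions. They were chosen for mention after their values were seen. Acsl1 was higher in SAH arrays 1 and 4, at 10.36 and 10.43, than in any sham array, while SAH array 5, at 9.96, lay below sham array 8. Acsl4, which prefers arachidonic acid, read 10.05, 10.04 and 10.42 in SAH arteries and 9.18, 9.56 and 9.89 in sham arteries. The differences were 0.70 ± 0.23 (SE) for Acsl1 and 0.63 ± 0.20 for Acsl4, against -0.40 ± 0.10 for Acsl3 and -0.04 ± 0.09 for Acsl6. None passed the limma threshold, with adjusted p from 0.150 to 0.904. Crat, carnitine acetyltransferase, differed by -0.48 ± 0.12 and Slc25a20, the carrier of acylcarnitines into the mitochondrion, by -0.40 ± 0.12, with limma adjusted p of 0.140 and 0.196.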
